A study of Caenorhabditis elegans with 2 samples.

Results

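The egg-5 gene and 6 other Caenorhabditis elegans genes of the oocyte-to-embryo transition (egg-1, egg-2, egg-3, egg-4, mbk-2 and chs-1) were examined for occupancy by the T-box transcription factor TBX-2. These 7 genes, of 19985 annotated protein-coding genes, were listed by name. The set was chosen by the signal value of egg-5, which has one of the strongest promoter peaks in these data, so that peak is described here and not tested. Sequencing of immunoprecipitated chromatin (ChIP-seq) was done with an anti-GFP antibody on whole L3 larval hermaphrodites of strain OP159, genotype unc-119(ed3) III; wgIs159. These worms carry a stable transgene for TBX-2 that ends in a GFP-FLAG tag (C-terminal fusion), and they were collected 48 h after synchronization at the starved L1 stage that follows bleaching. There was 1 group of 2 biological replicates, and no control library was analysed here. A gene was said to have a promoter entry where the summit of a listed peak lay from 1000 bp upstream to 200 bp downstream of one of its transcript starts. Distances below are negative upstream of a start and positive downstream of it.

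At fertilization, the oocyte must complete meiosis, build an eggshell and turn over maternal proteins. EGG-1 and EGG-2 are oocyte surface proteins with LDL-receptor repeats that are needed for sperm entry. EGG-3, EGG-4 and EGG-5 are phosphatase-like proteins without catalytic activity. They hold the DYRK-family kinase MBK-2 at the oocyte cortex until meiosis proceeds, and EGG-4 and EGG-5 also restrain its activity. CHS-1 is the chitin synthase that makes the chitin of the eggshell. Oocytes form in the adult, whereas the worms used here are labelled as L3 larvae. Whether they held oocytes was not measured.

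The egg-5 peak lay over an RNA gene of the SL2 class, so genes of that class are shown first. An SL2 RNA is a short nuclear RNA that donates its leader to the 5′ end of other transcripts by trans-splicing, chiefly to downstream genes of operons. The RNA gene under the egg-5 summit is sls-2.4, and 4 of the 18 SL2 genes in the annotation, sls-2.4 included, share the same first 22 bases. The genes printed here are the other 3 with these bases, then sls-2.8 and sls-2.12. The gene sls-2.8 has another leader and, in the list of the pooled replicates, a summit on the gene, and sls-2.12 has no entry in any list. They are given 5′ to 3′ on the strand of the gene, from the RefSeq WBcel235 genome (the same coordinates as ce11), with the first 22 bases in capitals. The places are chrII:5844865-5844974 (plus strand) for sls-2.1, chrII:5543598-5543707 (plus) for sls-2.2, chrII:5544164-5544273 (minus) for sls-2.3, chrIII:12250465-12250575 (plus) for sls-2.8 and chrIV:5261913-5262022 (plus) for sls-2.12.
sls-2.1: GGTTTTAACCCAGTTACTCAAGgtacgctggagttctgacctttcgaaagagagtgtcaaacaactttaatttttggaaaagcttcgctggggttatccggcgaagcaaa
sls-2.2: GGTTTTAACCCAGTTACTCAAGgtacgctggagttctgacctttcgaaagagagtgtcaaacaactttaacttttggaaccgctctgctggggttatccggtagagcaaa
sls-2.3: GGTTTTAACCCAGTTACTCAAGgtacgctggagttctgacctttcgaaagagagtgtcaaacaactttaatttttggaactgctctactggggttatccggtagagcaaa
sls-2.8: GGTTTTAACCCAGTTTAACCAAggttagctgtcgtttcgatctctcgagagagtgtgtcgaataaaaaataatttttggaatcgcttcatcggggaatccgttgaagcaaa
sls-2.12: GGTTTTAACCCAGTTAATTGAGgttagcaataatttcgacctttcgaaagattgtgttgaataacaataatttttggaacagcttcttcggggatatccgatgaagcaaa

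The lists hold a signal value for each entry, as given by the authors' peak caller, and no read counts, so the sequencing depth is unknown. The list of the pooled replicates held 30000 ranked entries with a median signal value of 25.96 and a lowest of 15.9. Replicate 1 had 28366 entries with a median of 16.8, and replicate 2 had 30000 with a median of 14.5. Of these, 1631 pooled entries passed the threshold of the authors on the irreproducible discovery rate (IDR), and they were the strongest ones, down to a signal value of 91.0. Entries below that value include background. Whether signal values of different lists were normalized to each other is not known, so folds are given only within a list.

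Of the 7 genes, 1 had a thresholded summit in its promoter window, which was egg-5, beside 5.41% of all protein-coding genes (1081 of 19985). In the pooled ranked list, 2 of the 7 had a promoter entry, egg-5 and mbk-2, beside 36% of protein-coding genes. Replicate 1 held entries for the same 2 genes, beside 36.1% of protein-coding genes. Replicate 2 held entries for 3 genes, with egg-4 as the added one, beside 37% of protein-coding genes. Of the strongest 1631 entries of each replicate taken alone, the promoter window of 1 gene, again egg-5, held a summit, beside 5.24% of protein-coding genes in replicate 1 and 5.13% in replicate 2. Apart from egg-5, which was chosen for its peak, the other 6 genes held no thresholded summit. The genes egg-1, egg-2, egg-3 and chs-1 had no promoter entry in any of the 4 lists.

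**Figure D1:**
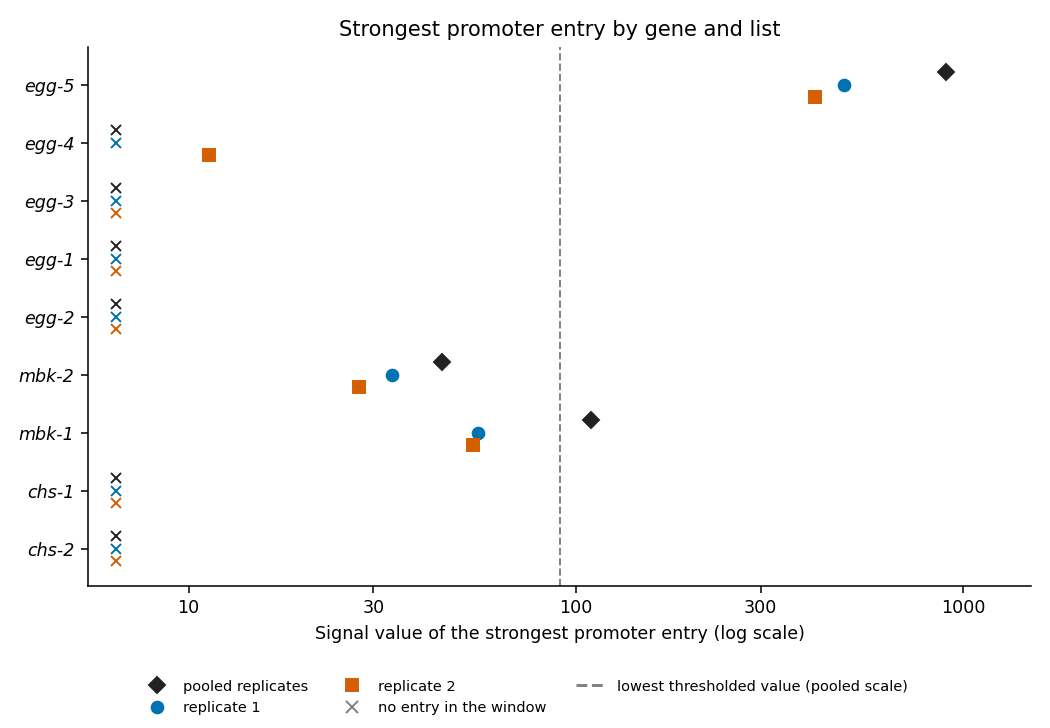
Signal value (log scale, in the units of the authors' peak caller) of the strongest promoter entry of the 7 genes and the paralogs mbk-1 and chs-2, in the pooled, replicate 1 and replicate 2 lists. Crosses at the left edge stand for no entry, and the dashed line is the lowest thresholded value, 91.0, which applies to pooled values. The 3 points of egg-5 lie at 906, 492 and 415, whereas egg-1, egg-2, egg-3, chs-1 and chs-2 have crosses in all 3 lists.

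The egg-5 gene (WBGene00020035) lies on chromosome I from 4168984 to 4171589 on the minus strand. Its strongest promoter entry spanned 750 bp, from 4171940 to 4172689, with the summit at 4172288, which is 699 bp upstream of the transcript start. The pooled signal value was 906, at rank 39 of 30000. In replicate 1 the signal value was 492 at rank 38, with the summit at the same base. In replicate 2 it was 415 at rank 41, with the summit 8 bp further upstream, at 4172296. The ranks in the replicates thus differed by few places. Since the lists are not known to be normalized to each other, no mean of the signal values is given. The pooled value was 9.96 times the lowest thresholded value and 34.9 times the pooled median. It was also the strongest pooled entry on chromosome I.

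A peak of this strength was rare among coding promoters. Only 20 of 19985 protein-coding genes, or 0.1%, had a pooled promoter summit at or above the signal value of egg-5. These genes shared summits, so that 15 distinct coding promoter summits were stronger, of which 7 lay on nuclear chromosomes and the rest on the mitochondrial genome. Just above egg-5 in the pooled ranking stood the promoter summit of cdc-48.1, a gene for a p97-type ATPase that unfolds ubiquitinated proteins, at rank 38 with 907. Just below stood that of rpl-35, a ribosomal protein gene, at rank 41 with 811. Likeness to egg-5 was measured as the Euclidean distance of the log2 signal values over the 2 replicate lists. By that measure the nearest distinct summits were those of cdc-48.1 (distance 0.08), tasp-1 with K01G5.10 (0.18), rpl-15 with K11H12.8 (0.22), rpl-35 (0.25) and tag-340 with nhl-2 (0.26). The pairs each share 1 summit. None of these genes belongs to the oocyte-to-embryo lists used here.

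The same interval held a further summit, closer to the upstream gene R12E2.11. In the pooled list this summit lay 934 bp upstream of egg-5 with a signal value of 76.9 at rank 2166, below the IDR threshold. In replicate 1 it lay at −911 bp with 117 at rank 389, and in replicate 2 at −909 bp with 105 at rank 336. Both replicate ranks were thus within the strongest 1631 entries of their list, whereas the pooled rank was not. The pooled value was lower than that of either replicate, unlike at the main egg-5 summit, and the reason was not tested. In all 3 lists it fell in an exon of R12E2.11 outside its coding sequence.

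The main egg-5 summit lay inside 2 RNA genes on opposite strands. One was sls-2.4 (WBGene00004836, plus strand, 4172206 to 4172315), with the summit 82 bp downstream of its start. The other was the non-coding RNA gene R12E2.18 (WBGene00197595, minus strand, 4172204 to 4172306), with the summit 18 bp downstream of its start. In replicate 2 the corresponding distances were 90 bp and 10 bp, so the summit stayed inside both genes. The promoter windows of 3 genes held the summit, those of R12E2.18, sls-2.4 and egg-5, and egg-5 was the farthest of the 3. The start of sls-2.4 lies 617 bp upstream of that of egg-5, and the genes point away from each other. A peak list has no strand, and occupancy of sls-2.4, of R12E2.18 and of the egg-5 promoter cannot be told apart by this peak.

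Among coding genes, egg-5 had the transcript start nearest to the summit. The next was that of R12E2.11 (minus strand), whose start was 1336 bp away although its 3′ end lay 150 bp from the summit. The start of mrps-6, which encodes a mitochondrial ribosomal protein, was 2486 bp away. That of rpn-8, which encodes a subunit of the proteasome regulatory particle, was 3031 bp away. The small nucleolar RNA gene R12E2.17, in an intron of rpn-8, had an entry of its own with a pooled signal value of 70.4 at rank 2481. That entry had 38.1 in replicate 1 and 29.5 in replicate 2, with the summit at the same base in all 3 lists. Apart from the pair of summits in the egg-5 window, the pooled entries within 5000 bp of egg-5 were all weaker than that of R12E2.17.

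**Figure D2:**
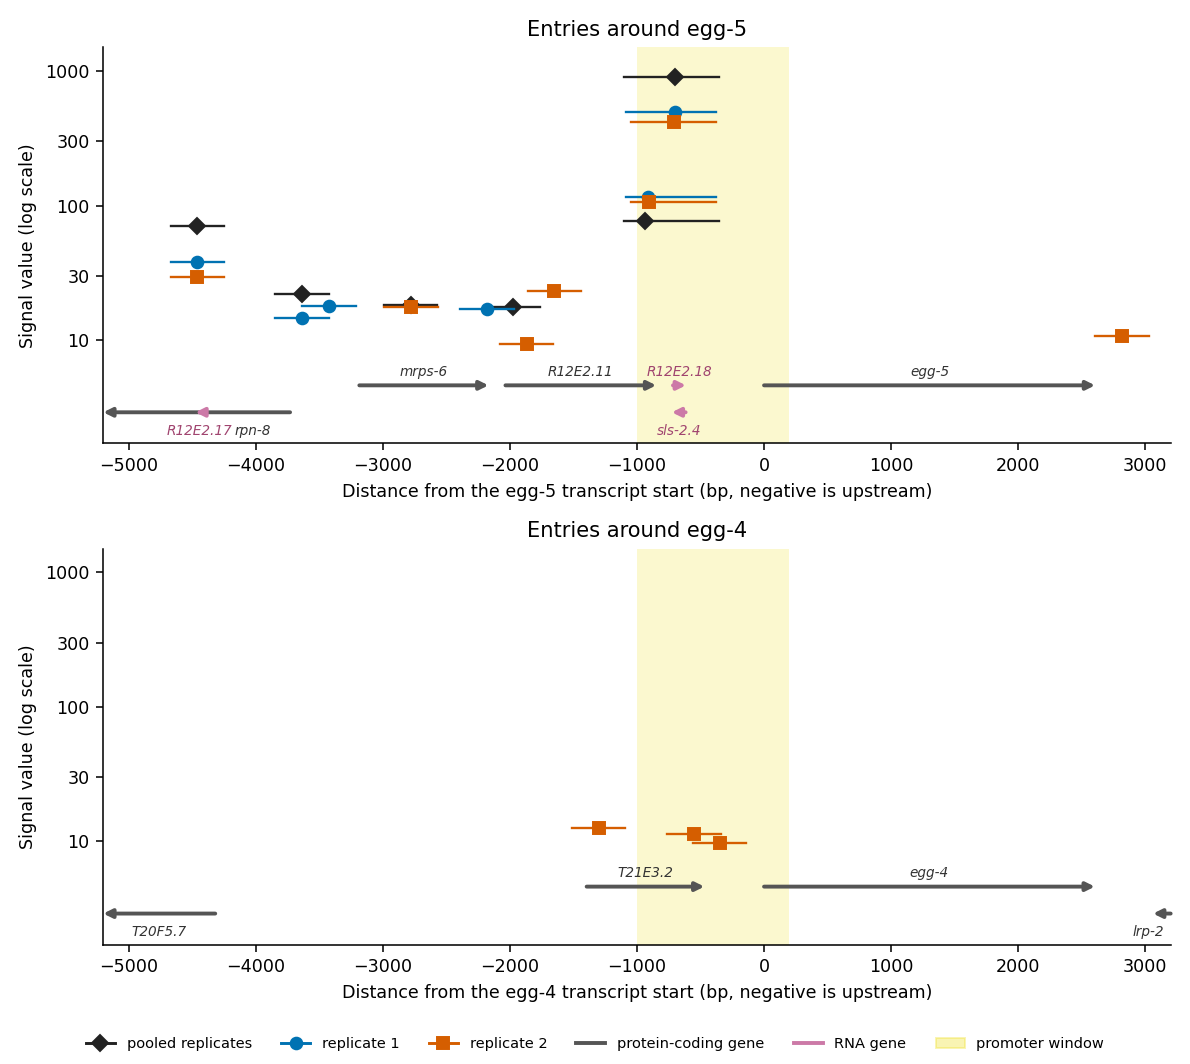
Entries around egg-5 (upper panel) and egg-4 (lower panel), by distance in bp from the transcript start (x, negative is upstream) and signal value (y, log scale). Each horizontal line is an entry and its symbol the summit, in black for the pooled list and in blue and orange for replicates 1 and 2, and arrows are genes pointing in their direction of transcription. The egg-5 summits at 906, 492 and 415 sit over sls-2.4 and R12E2.18, and the egg-4 window (yellow) holds 2 entries of replicate 2 only.

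The paralog egg-4 (WBGene00020652, chromosome I, 3932210 to 3934813, plus strand) had no promoter entry in the thresholded, pooled or replicate 1 list. Replicate 2 listed 2 entries in its window. The stronger had a signal value of 11.3 at rank 22649, 550 bp upstream in an exon of the neighbouring gene T21E3.2. The other had 9.77 at rank 27616, 348 bp upstream, and both were near the lowest value of that list, 9.12. The −log10 q value of the stronger was 0.0959, in the range of the list that includes background, so no fold against egg-5 is given. In replicate 1 the egg-5 value was 45.7 times the lowest signal value listed, 10.8.

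The coding sequences of egg-4 and egg-5 were each 2259 bp long and 99.1% identical. The 1000 bp upstream of their starts were 67.0% identical in a global alignment, and the egg-4 window holds no SL2 gene. The same measure gave 56.9% for egg-1 with egg-2, 59.1% for mbk-2 with mbk-1 and 49.5% for chs-1 with chs-2. Reads can be placed uniquely where a stretch occurs once in the genome, so every 36-base word of each promoter window was looked up on both strands. Of the words in the egg-4 window, 93.7% occurred once, and of those in the egg-5 window, 92.2%. For the egg-5 summit with 100 bp on each side the share was 89.2%, and for sls-2.4 itself it was 78.7%. The read length and the treatment of reads with several matches could not be read from the sources, so what part repeated words play in the signal values was not tested. In the windows of the other 5 genes the share was between 99.8% and 100%.

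The oocyte surface genes had no promoter entry. Near egg-1 (WBGene00015083, chromosome III, 5728180 to 5730159, plus strand), 1 pooled entry lay within 5000 bp of the gene, with a signal value of 24.1 at rank 17012, in a coding exon of wrm-1. Near egg-2 (WBGene00019811, chromosome III, 7058527 to 7060583, minus strand), the pooled list had no entry within 5000 bp and replicate 1 had 3, all beyond the 3′ end of egg-2. The strongest of these had 20.5 at rank 9516, in a coding exon of R01H2.2. Replicate 2 had no entry within 5000 bp of either gene. The coding sequences of egg-1 and egg-2 were 73.0% identical.

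The gene for the third cortical protein, egg-3 (WBGene00009701, chromosome II, 10882408 to 10884441, minus strand), likewise had no promoter entry. Replicate 1 had an entry inside the gene, in a coding exon 822 bp downstream of the start, with a signal value of 10.8 at rank 28295 of 28366. The nearest pooled entry, with 25.4 at rank 15659, lay in an intron of the neighbouring gene lurp-1. The chitin synthase gene chs-1 (WBGene00000496, chromosome I, 7554855 to 7559916, plus strand) has 2 annotated starts, and neither had an entry. Its nearest pooled entry lay in intergenic sequence past its 3′ end, 1318 bp from the start of gpdh-3. That entry had a pooled value of 83.3 at rank 1907, with 39.2 in replicate 1 and 42.1 in replicate 2. The paralog chs-2, the chitin synthase gene of the pharynx, had no promoter entry at its 3 starts.

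The kinase gene mbk-2 (WBGene00003150, chromosome IV, 13009158 to 13035961, plus strand) was the only other member with pooled promoter entries, and all were below the IDR threshold. It has 6 annotated transcript starts, so its windows cover more sequence than those of the other members. The pooled list had 7 summits in these windows, replicate 1 had 5 and replicate 2 had 6. The strongest pooled summit had a signal value of 45.2 at rank 5261, in an intron 160 bp upstream of the start at 13026206. The same intron summit had 23.4 at rank 7182 in replicate 1. In replicate 2 a summit 10 bp further upstream had 22.8 at rank 6055. Each replicate had another summit as its strongest, with 33.6 at rank 3500 and −632 bp in replicate 1 and 27.6 at rank 4092 and +75 bp in replicate 2. At the first start of mbk-2, the only pooled entry had 17.0 at rank 27913, 484 bp upstream, and neither replicate list had an entry there. In the replicate lists, the mbk-2 promoter entries were thus all at later starts. The pooled egg-5 value was 20.03 times the strongest value in an mbk-2 promoter window. Outside the windows, stronger pooled entries lay in an mbk-2 intron (69.2 at rank 2546) and in an mbk-2 exon (51.3 at rank 4160).

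The paralog mbk-1 (WBGene00003149, chromosome X, 14819909 to 14824540, minus strand), another DYRK-family kinase gene, had a thresholded summit. Its pooled signal value was 110 at rank 1203, 349 bp upstream of its start in intergenic sequence. The value was 55.7 at rank 1451 in replicate 1 and 54.2 at rank 1188 in replicate 2. The coding sequences of mbk-1 and mbk-2 were 48.6% identical over the longer sequence, beside 59.1% for the sequences upstream of the genes. No other gene had a window that held the mbk-1 summit or the strongest pooled mbk-2 summit. Below, each of these summits is shown with 50 bp on each side on the strand of the gene, with the summit base in capitals, for chrX:14824839-14824939 (minus strand) and chrIV:13025996-13026096 (plus strand) on WBcel235.
mbk-1 summit: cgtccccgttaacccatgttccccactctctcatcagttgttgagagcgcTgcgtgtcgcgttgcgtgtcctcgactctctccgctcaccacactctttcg
mbk-2 summit: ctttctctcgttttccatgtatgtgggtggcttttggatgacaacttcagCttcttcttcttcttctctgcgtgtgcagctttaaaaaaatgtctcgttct

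Because the egg-5 summit lay in an SL2 gene, the SL2 genes were then read in the same way, a step chosen after the egg-5 summit had been seen. Of the 18 SL2 genes, 8 had a thresholded summit in their window (44.4%). These include sls-2.4, whose summit is the egg-5 peak that was chosen for its strength. The share was 14% of all 129 small nuclear RNA genes of the annotation (18 genes, these 8 included), 10.1% of the 99 that are neither SL1 nor SL2 genes, and 6.61% of 7764 non-coding RNA genes. None of the 12 genes for the other leader, SL1, had a thresholded summit, and 1 had a pooled entry. The SL1 genes are repeated copies, and a median of 3.52% of the 36-base words in their windows occurred once in the genome, against 95.5% in the SL2 windows, so the classes are not compared. Among SL2 windows the share ranged from 61.5% to 100%, and the lowest was that of sls-2.12, which has no entry in any list. The other SL2 windows without a pooled entry had 92.1% (sls-2.10), 88.6% (sls-2.11) and 95.5% (sls-2.13). How these shares bear on the entries was not tested. In the pooled list 14 of the 18 SL2 genes had an entry, beside 41.9% of small nuclear RNA genes. The neighbouring genes sls-2.14 and sls-2.15 shared the same pooled summit (62.4 at rank 2959). The strongest pooled summit fell inside the gene itself for 4 SL2 genes, thresholded at sls-2.4 and sls-2.8 and below the threshold at sls-2.18 (89.5) and sls-2.17 (37.8). Of these 4, only sls-2.4 had its strongest summit inside the gene in each replicate list too. In replicate 2 that of sls-2.8 lay at +111 bp, just past the gene, and that of sls-2.18 at −737 bp. In replicate 1 that of sls-2.17 lay at −906 bp.

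The sls-2.4 value was the highest of the class. It was followed by sls-2.1, with a pooled signal value of 762 at rank 44 and a summit 36 bp upstream of the gene. The values of sls-2.1 were 417 in replicate 1 and 346 in replicate 2. The summit at sls-2.2 had 673 at rank 48 and lay 111 bp from its start, just past its 3′ end, with 389 in replicate 1 and 286 in replicate 2. A gap separated these 3 from the next, sls-2.8, with 205. The remaining thresholded genes were sls-2.9 (181), sls-2.7 (140), sls-2.5 (98.4) and sls-2.6 (91.6). The start of the SL2 gene was the nearest of all to the summit for 4 of the 8 thresholded genes. The sls-2.6 summit was 342 bp from sls-2.6 and 147 bp from the coding gene hgo-1, and that of sls-2.9 was 108 bp from its start and 24 bp from that of a tRNA gene. At sls-2.4 and sls-2.2 a non-coding RNA gene had the nearer start. Some of the summits were also in coding promoter windows. The sls-2.7 summit lay 343 bp upstream of W06D4.3. That of sls-2.1 lay 948 bp upstream of H41C03.3, and that of sls-2.8 lay between Y75B8A.23 and tim-1.

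Of the 4 genes with the shared first 22 bases, 3 were the strongest of the class. The group was defined by the leader of sls-2.4, whose peak was chosen for its strength, so a link between leader and signal value was not tested. The remaining gene with these bases, sls-2.3, is 95.5% identical to sls-2.4 over the whole gene. The strongest pooled entry in its window had 41.1 at rank 6285 and lay 900 bp upstream. The sls-2.2 summit lay 564 bp downstream of the sls-2.3 start, outside the sls-2.3 window. The genes sls-2.2 and sls-2.1 were 96.4% and 90.9% identical to sls-2.4. The other 14 SL2 genes were between 72.8% and 81.8% identical to it. The SL2 genes without a pooled entry all lay on chromosome IV, namely sls-2.10, sls-2.11, sls-2.12 and sls-2.13, and sls-2.10 had 10.6 in replicate 2. The share of 36-base words that occur once was 41.3% in sls-2.1 and 53.3% in sls-2.2, against 78.7% in sls-2.4. How the repeated words bear on these values was not tested.

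**Figure D3:**
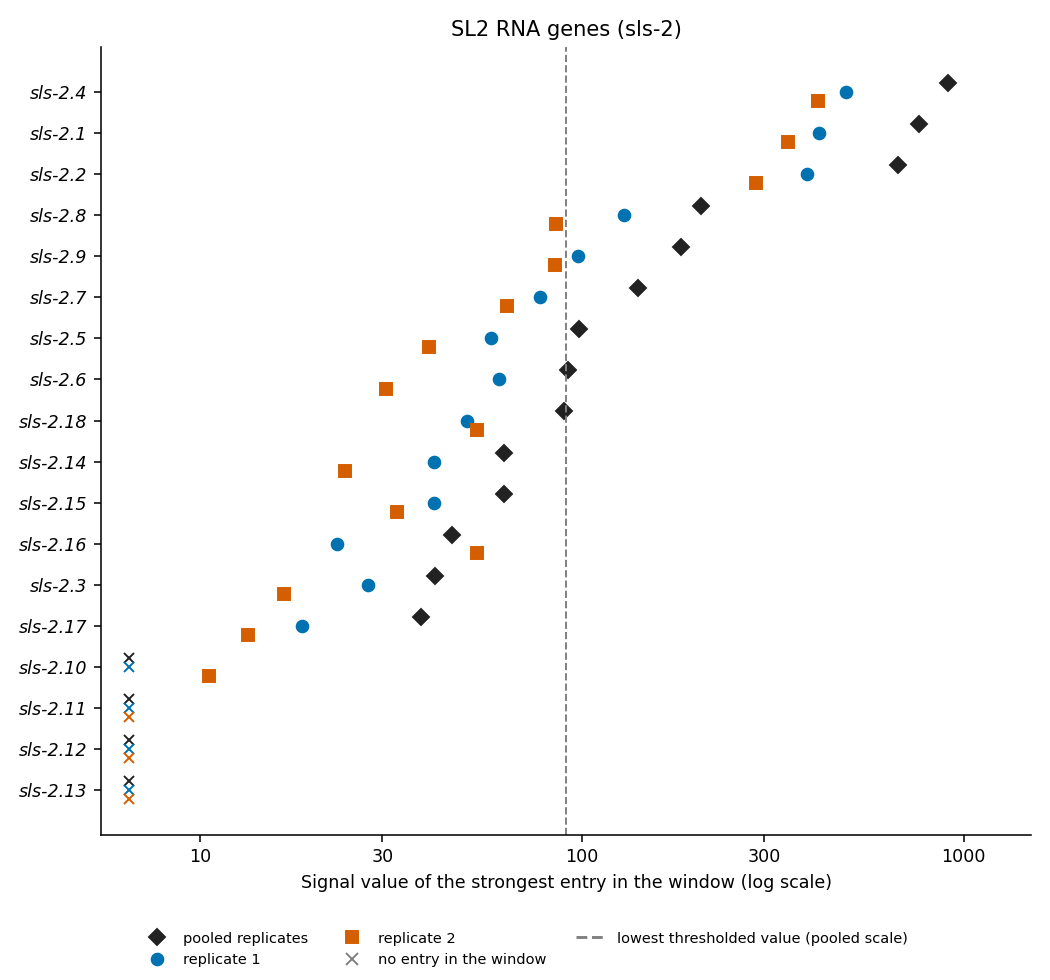
Signal value (log scale) of the strongest entry in the window of each of the 18 SL2 RNA genes, in the pooled, replicate 1 and replicate 2 lists, in the order of the pooled value. Crosses stand for no entry and the dashed line is the lowest thresholded pooled value, 91.0. The genes sls-2.4, sls-2.1 and sls-2.2 lie at 906, 762 and 673 in the pooled list, apart from sls-2.8 at 205. The pooled points of sls-2.14 and sls-2.15 are the same entry.

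Summits shared by coding promoters and RNA genes were not peculiar to egg-5. Of the thresholded list, 880 summits lay in at least 1 coding promoter window. For 220 of these, or 25%, the nearest transcript start was that of an RNA gene, and 118, or 13.4%, lay inside an RNA gene.

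The letters of the T-box site were then searched, as GGTGTGA and as its shorter form GGTGTG, which lies within it, on both strands. Neither occurred within 100 bp of the egg-5 summit or anywhere in the egg-5 promoter window. Neither occurred within 100 bp of the strongest pooled summit of mbk-2 or mbk-1, nor of those of the 8 thresholded SL2 genes. Among nuclear thresholded summits, 0.994% of 1609 windows of the same length held GGTGTGA and 7.58% held GGTGTG. Among the other 28369 nuclear pooled summits, the shares were 1.64% and 5.93%. In the promoter windows of the first starts, GGTGTGA occurred at egg-3 (922 bp upstream) and chs-1 (99 bp downstream), which had no promoter entry. GGTGTG alone occurred at egg-1 (920 bp upstream) and mbk-2 (75 bp downstream), and neither form at egg-2, egg-4 or egg-5. Of the promoter windows of 19972 nuclear protein-coding genes, 8.30% held GGTGTGA and 24.7% held GGTGTG. These are matches of letters, and they show nothing about binding.

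A wider list of 47 genes around fertilization and the first divisions was read beside the 7, and 46 of them were found in the annotation. Of these 46, 2 had a thresholded promoter summit (4.35%), mex-1 and zyg-11, beside 5.41% of protein-coding genes. In the pooled list 24 of 46 had a promoter entry (52.2%), beside 36%. For genes with a pooled entry, the median signal value was 27.03 in the list and 33.8 over all protein-coding genes. In the replicates, 26 of 46 had an entry in replicate 1 and 24 in replicate 2, with 17 in both. Of all 19985 protein-coding genes, 7222 (36.1%) had an entry in replicate 1 and 7391 (37%) in replicate 2, with 5244 in both. Most of the pooled entries of the 46 genes were in the range of the ranked list that includes background.

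Among the genes of MBK-2 activation, its substrates and their degradation, 10 of 14 had a pooled entry (71.4%, beside 36% of protein-coding genes) and 1 a thresholded one (7.14%, beside 5.41%). That gene was zyg-11, which encodes a substrate-recognition subunit of a CUL-2 ubiquitin ligase needed at meiosis. It had a pooled signal value of 109 at rank 1207, 667 bp upstream, with 53.4 in replicate 1 and 55.01 in replicate 2, and no other gene had a window with this summit. The gene cul-3, whose ubiquitin ligase removes the MBK-2 substrate MEI-1, had 80.0 at rank 2043, with 32.9 in replicate 1 and 36.2 in replicate 2. The MBK-2 substrate gene mei-1 had a pooled value of 45.1, and oma-1, another substrate gene, had no entry in any list.

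Among 9 genes for maternal RNA-binding proteins, 6 had a pooled entry (66.7%, beside 36%) and 1 a thresholded one (11.1%, beside 5.41%). That was mex-1, a zinc-finger protein gene of early blastomere fate, with 146 at rank 752 and a summit 944 bp upstream. It had 92.4 in replicate 1 and 55.3 in replicate 2. This summit was nearer to the starts of W03C9.5 (149 bp) and rab-7 (762 bp), both on the other strand. The gene spn-4, which encodes a regulator of maternal mRNA translation, had 84.3 at rank 1869, with 43.1 and 39.7 in replicates 1 and 2. The start of spe-39 was closer to that summit, at 124 bp against 424 bp for spn-4. The summits of mex-1 and zyg-11 are shown with 50 letters on each side and the summit base in capitals, on the plus strand, for chrII:11967643-11967743 and chrII:8016963-8017063 on WBcel235. Neither T-box form was found within 100 bp of them.
mex-1 summit: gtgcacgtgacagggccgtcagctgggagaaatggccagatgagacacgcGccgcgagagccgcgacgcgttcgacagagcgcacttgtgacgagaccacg
zyg-11 summit: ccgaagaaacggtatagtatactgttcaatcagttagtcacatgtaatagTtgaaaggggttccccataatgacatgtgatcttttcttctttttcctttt

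The other groups had no thresholded promoter summit. On the sperm side of fertilization, 3 of 8 genes had a pooled entry (37.5%, beside 36% of protein-coding genes). The highest was spe-9, a sperm surface protein gene, with 76.9 at rank 2172, 46.5 in replicate 1 and 32.7 in replicate 2. Its summit was 438 bp upstream of a spe-9 start and 129 bp from the start of a tRNA gene (WBGene00014126). That spe-9 start is internal to the gene, and the summit lay in a spe-9 coding exon, downstream of the 5′ end of the gene. Of 7 eggshell genes, 2 had a pooled entry (28.6%), the higher at cpg-1, a chondroitin proteoglycan gene of the eggshell, with 20.3 at rank 22189, 17.1 in replicate 1 and no entry in replicate 2. Of 7 genes of meiotic division and anaphase promotion, 3 had one (42.9%). The highest was sep-1, the separase gene, with 26.3 at rank 14655, no entry in replicate 1 and 22.9 in replicate 2. The pooled summit of sep-1 was nearer to nefr-1, 112 bp from its start. The yolk receptor gene rme-2 had no pooled entry and a value of 11.1 in replicate 1.

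**Figure D4:**
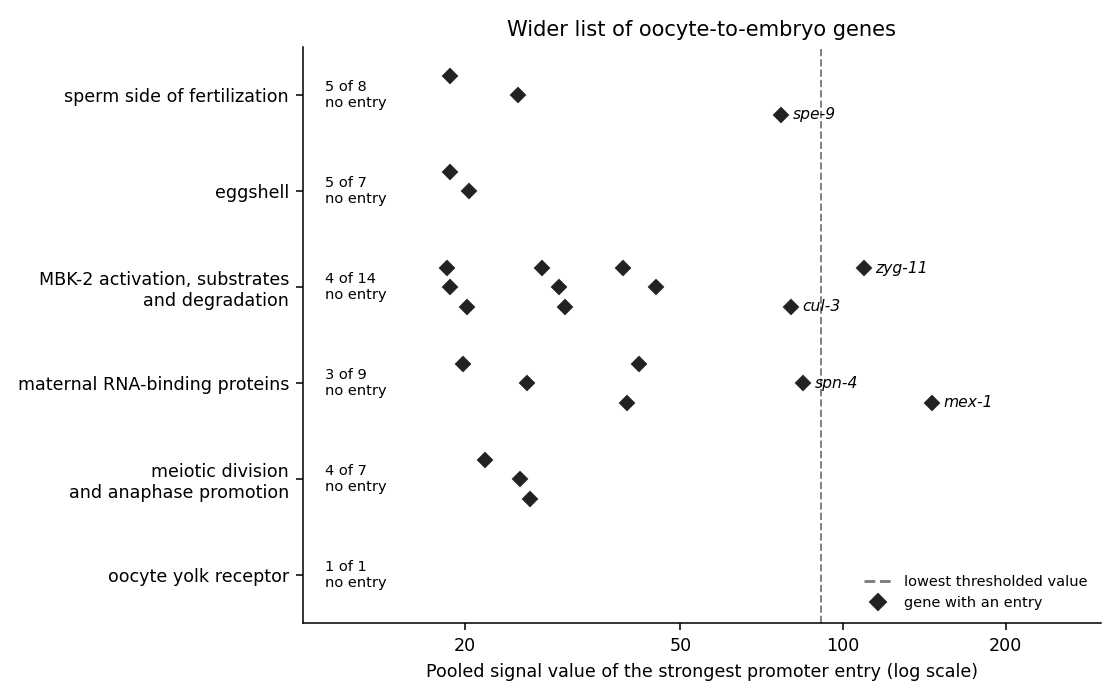
Pooled signal value (x, log scale) of the strongest promoter entry for each gene of the wider list, by group of roles (y), with the number of genes without a pooled entry at the left. The dashed line is the lowest thresholded value, 91.0, and genes above 60 are named. Only mex-1 at 146 and zyg-11 at 109 lie to the right of the line.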

How the data were processed

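Peak lists from 2 biological replicates were used as deposited, in narrowPeak format on ce11, per the listing of files beside them. Per that listing, the authors made ranked lists, which also hold background, per replicate and for both replicates pooled, and a list thresholded on the irreproducible discovery rate. The deposited signal values were set by the peak caller the authors used. Neither the aligner, the caller and its normalization nor the read length is given in the sources used here. The −log10 q value, also deposited, was at its maximum of 2.76 for egg-5 and was not used for ranking. The list thresholded on ce10 (2343 entries) was not looked up by gene, since no ce10 annotation was used here. Its lowest signal value was 73.0, against 91.0 on ce11. Entries with values between these, such as those of spn-4, cul-3 and spe-9 and the further egg-5 summit, were called below the threshold from the ce11 list alone.

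Transcript starts came from Ensembl release 115 and sequences from the RefSeq WBcel235 genome, which has the coordinates of ce11. Summits from 1000 bp upstream to 200 bp downstream of any start were assigned to a gene, which was tested on simulated entries. Sequence identity came from global alignments (Biopython 1.88; match 1, mismatch −1, gap opening −2, gap extension −0.5). Tables were made with Python 3.11.15, pandas 2.3.3 and numpy 2.4.6, and plots with matplotlib 3.10.9. No test was run, since there is 1 group of 2 replicates.

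The members, lists and sites were chosen with earlier results of these data known. Named were the 7 genes, all genes sharing their summits or nearest to them, mbk-1 and chs-2. From the wider list, named were genes with a thresholded summit and the highest of each group, and the 5 summits most like that of egg-5 and its neighbours in rank were added. The SL2 genes, the second egg-5 summit, mei-1 and oma-1 were named after their values had been seen. Of the wider list, spe-13 was not matched.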

Additional observations from a re-analysis of the deposited data

How the results depend on the processing

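Counts were recomputed with windows of 500 bp and 2000 bp upstream, with overlap of the whole entry in place of the summit, with 1 start per gene, with the stronger part of the thresholded list (above its median), and with each replicate list alone, cut to its strongest 1631 entries where a threshold was needed. With 500 bp upstream, the count of the 7 genes with a thresholded summit fell to 0 and that with a pooled entry to 1 (mbk-2), because the egg-5 summit is 699 bp from its start; the egg-5 signal value then has no counterpart. In the wider list, the count of 2 with a thresholded summit went to 0 with 500 bp, to 5 with 2000 bp and to 1 (mex-1) with its stronger part. With either replicate left out, the egg-5 signal value ranged from 415 to 492 against 906 in the pooled list, on scales that are not known to be normalized to each other. The 23 other recomputed values stayed within 1.5 times the main count or equal to the main value, among them 3 genes sharing the egg-5 summit (2 with 500 bp, without egg-5). No pooled value exists for egg-4, so no alternative was computed for it. The strongest mbk-2 value was 69.2 with 2000 bp and 17.0 with 1 start per gene, against 45.2. No paired analysis was possible because there is 1 group. The lists hold no counts, so a gene without an entry is not shown to lack occupancy.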
